A study of Rattus norvegicus with 8 samples.

Results

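The 7 probe sets described here, on a rat habenula array, report microglial receptors and interferon-inducible genes, and they were chosen as the probe sets whose only annotated gene symbol is Tmem119, Gpr34, Cd180, Mx1, Ifi44l, Gbp5 or Psmb9. They are 7 of the 379 probe sets in the deposited table, of which 283 carried a single gene symbol, and each gene was read by 1 probe set. Tissue came from male Sprague-Dawley rats, 4 of them held in film envelopes for 2 hours daily on 14 days (stress) and 4 kept in the home cage without stressors (non-stress). Each array was a separate rat, the labels name no genetic change, and ages were not given in the sources used here. Levels are log2 intensities of total RNA, amplified and biotin-labelled for an Affymetrix whole-transcript array.

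Microglia are the resident macrophages of the brain and survey it through surface receptors for lipids, nucleotides and microbial products. Interferons are cytokines that bind receptors on most cell types, microglia included, and act through STAT transcription factors on response elements near gene starts. Their targets include antiviral GTPases, guanylate-binding proteins and the inducible subunits of the immunoproteasome, which cuts proteins into peptides for MHC class I.

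The deposited table was itself selected on the group difference in these same arrays, and the members were chosen by name with their differences known. In the authors' deposited table every probe set had an unadjusted p of at most 0.0499 and an absolute log2 difference of at least 0.26. In the authors' deposited table the members' p-values ran from 0.00207 for Cd180 to 0.0451 for Psmb9, the nearest to the limit, and Ifi44l was nearest to the limit on size at -0.29. The group differences below are therefore a description, with no test, and probe sets outside the limits were not analysed here. Array medians lay between 8.60 and 8.77, no hybridisation or scan batch was given in the sources used here, and the closest pair of arrays differed by a root mean square of 0.146, so none was a copy of another. Of 22 medial habenula symbols, 11 were in the table, and all 11 were lower in stressed rats, with a median difference of -0.48. Of all 379 probe sets, 55.4% were lower. Among the 11, the nicotinic receptor subunit gene Chrna3 was at 12.26 ± 0.05 in stressed and 12.61 ± 0.13 in non-stress rats (SD, n = 4).

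Of the 7 members 6 were lower in the stressed rats and Tmem119 alone was higher. Of all 379 probe sets, 210 were lower (55.4%), 169 were higher (44.6%) and 316 had groups that did not overlap (83.4%). Groups did not overlap in 6 of the 7 members, the exception being Psmb9, and nothing is read from that count because the same contrast chose the table. In whole tissue, fewer cells of a type and less RNA per cell cannot be told apart.

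Cd180, also called RP105, encodes a Toll-like receptor relative without the intracellular signalling domain, which pairs with MD-1 and modulates the response to bacterial lipids. It read 8.83, 8.85, 8.45 and 8.57 in non-stress rats 1, 3, 4 and 5, and 7.91, 8.04, 7.83 and 7.99 in stressed rats 7, 8, 10 and 12. The lowest non-stress rat lay 0.41 above the highest stressed rat, the widest gap of the 7 members. Group means were 8.67 ± 0.20 and 7.94 ± 0.09 (SD, n = 4), a difference of -0.73 ± 0.10 (limma SE), or 1.66-fold. Among the 210 lower probe sets, only 1 had a larger difference.

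Gpr34 encodes a receptor for lysophosphatidylserine that is enriched in microglia. Its levels were 8.95, 8.90, 8.88 and 8.82 in non-stress rats 1, 3, 4 and 5, and 8.26, 8.53, 8.29 and 8.12 in stressed rats 7, 8, 10 and 12. Non-stress rats were tightly grouped (8.89 ± 0.05), while stressed rats spread more widely (8.30 ± 0.17), with rat 8 the highest and rat 12 the lowest. The difference was -0.58 ± 0.09, or 1.50-fold, the 9th largest among the 210 lower probe sets.

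Tmem119 encodes a transmembrane protein used to tell resident microglia from blood-derived macrophages. Its levels ran the other way, at 9.41, 9.55, 9.16 and 9.50 in non-stress rats 1, 3, 4 and 5, and 9.66, 9.70, 9.80 and 9.96 in stressed rats 7, 8, 10 and 12. The lowest stressed rat lay 0.11 above the highest non-stress rat. Means were 9.78 ± 0.13 in stressed and 9.41 ± 0.17 in non-stress rats, a difference of 0.37 ± 0.10, or 1.30-fold, and rank 51 among the 169 higher probe sets. The 3 microglial members thus did not share a direction. Their median difference was that of Gpr34, -0.58, with a range from -0.73 to 0.37.

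**Figure D1:**
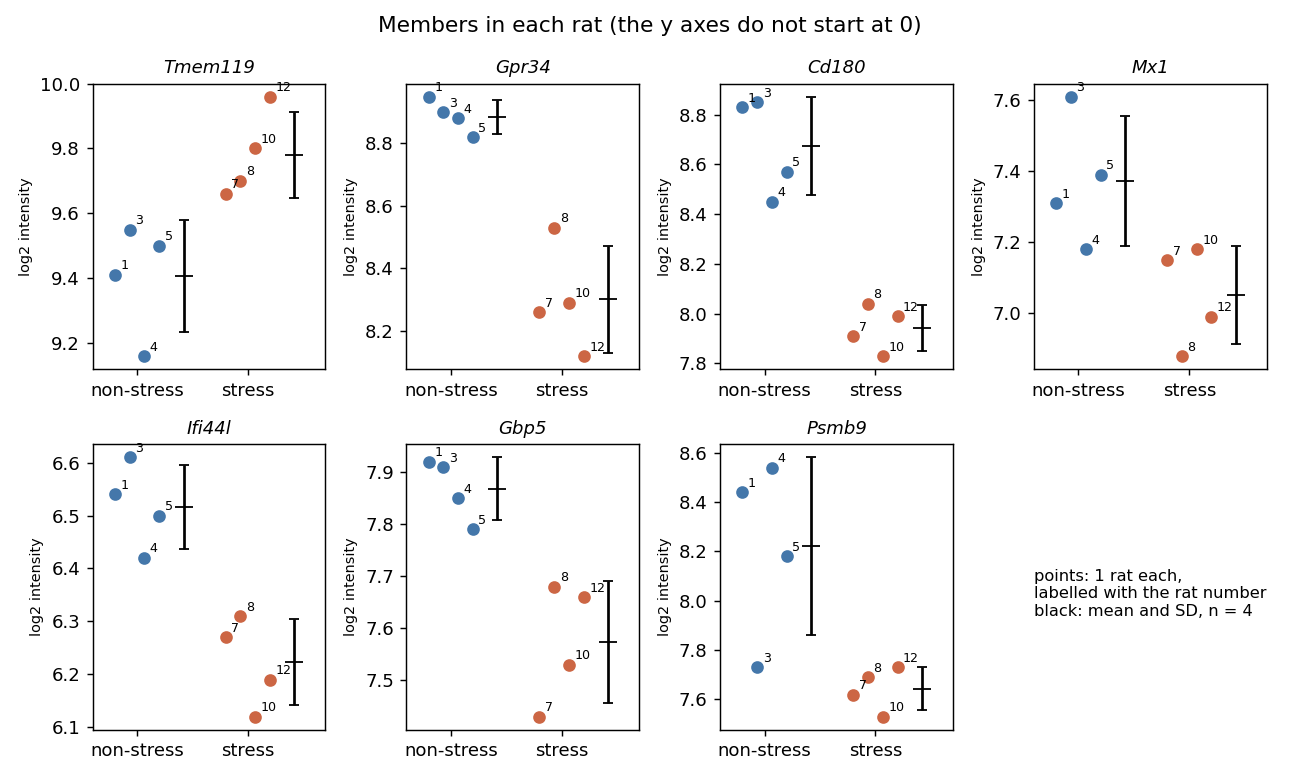
Log2 intensity of each member (y axis, not starting at 0) in the 4 non-stress and 4 stressed rats, with 1 numbered point per rat and the group mean and SD in black. Tmem119 is higher in every stressed rat, and Gpr34, Cd180, Mx1, Ifi44l and Gbp5 are lower in every stressed rat. Psmb9 of non-stress rat 3 lies about level with the highest stressed rat.

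The 4 interferon and immunoproteasome members were all lower in the stressed rats, with a median difference of -0.31 and a range from -0.58 to -0.29. The median over all lower probe sets of the table was -0.34, and over all 379 probe sets, higher ones included, -0.28. Mx1, Gbp5 and Ifi44l were smaller than the median of the lower probe sets. By size they held ranks 129, 160 and 163 among the 210 lower probe sets, and Psmb9 held rank 11.

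Psmb9, also called Lmp2, encodes an interferon-inducible catalytic subunit of the immunoproteasome that takes the place of its constitutive counterpart. It read 8.44, 7.73, 8.54 and 8.18 in non-stress rats 1, 3, 4 and 5, and 7.62, 7.69, 7.53 and 7.73 in stressed rats 7, 8, 10 and 12. Non-stress rat 3 (7.732) sat inside the stressed range, just below stressed rat 12 (7.734) and above stressed rats 7, 8 and 10. The other 3 non-stress rats lay above every stressed rat. Means were 7.64 ± 0.09 and 8.22 ± 0.36, a difference of -0.58 ± 0.13, or 1.49-fold. Without non-stress rat 3 the non-stress rats ran from 8.18 to 8.54 and the difference was -0.74. Only 9 of the 379 probe sets had a larger spread within groups (SD 0.262 for Psmb9, table median 0.128).

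Mx1 encodes a dynamin-like GTPase with antiviral activity. Its levels were 7.31, 7.61, 7.18 and 7.39 in non-stress rats 1, 3, 4 and 5, and 7.15, 6.88, 7.18 and 6.99 in stressed rats 7, 8, 10 and 12. Non-stress rat 4 and stressed rat 10 were 0.000847 apart, so the groups touched without overlapping. The means were 7.05 ± 0.14 in stressed and 7.37 ± 0.18 in non-stress rats, a difference of -0.32 ± 0.10, or 1.25-fold.

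Gbp5 encodes an interferon-inducible guanylate-binding protein, which in mouse macrophages takes part in inflammasome responses. It read 7.92, 7.91, 7.85 and 7.79 in non-stress rats 1, 3, 4 and 5, and 7.43, 7.68, 7.53 and 7.66 in stressed rats 7, 8, 10 and 12. Every non-stress rat was above every stressed rat, by at least 0.11. The means of 7.57 ± 0.12 and 7.87 ± 0.06 gave a difference of -0.29 ± 0.08, or 1.23-fold.

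Ifi44l encodes an interferon-induced protein studied chiefly in human cells. It was the dimmest member, with 6.54, 6.61, 6.42 and 6.50 in non-stress rats 1, 3, 4 and 5, and 6.27, 6.31, 6.12 and 6.19 in stressed rats 7, 8, 10 and 12. These levels lay at the 8.97th percentile of the table, and both groups were equally tight. The means of 6.22 ± 0.08 and 6.52 ± 0.08 gave a difference of -0.29 ± 0.08, or 1.22-fold. Quantile normalization over the 379 probe sets moved this difference to -0.45.

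**Figure D2:**
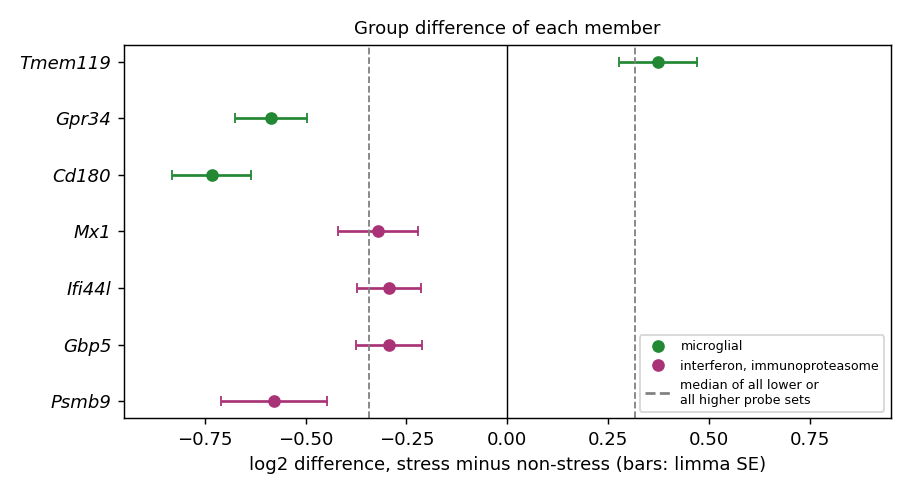
Log2 difference, stress minus non-stress, of each member (x axis) with limma's standard error as bars, green for microglial and purple for interferon and immunoproteasome members. Cd180, Gpr34 and Psmb9 lie beyond the dashed median of all lower probe sets at -0.34, the other interferon members lie near it, and Tmem119 lies near the dashed median of all higher probe sets at 0.32.

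Promoter windows of 300 bases from RefSeq (build GRCr8, 250 bases before and 50 after a gene's start) were given for 6 of the 7 members. They are shown for Ifi44l and Gbp5, which held interferon response letters, and for Gpr34, the microglial member with a match to the core bound by PU.1, a transcription factor that microglia need. Capitals mark matches to the interferon stimulated response element (GAAA, any 2 bases, GAAA), the GAS element of STAT dimers (TTCNNNGAA) and the PU.1 and ETS core (GAGGAA), searched on both strands. The windows are chr2:243328473-243328772 on the + strand for Ifi44l, chr2:233910749-233911048 on the + strand for Gbp5 and chrX:11785787-11786086 on the - strand for Gpr34.
Ifi44l: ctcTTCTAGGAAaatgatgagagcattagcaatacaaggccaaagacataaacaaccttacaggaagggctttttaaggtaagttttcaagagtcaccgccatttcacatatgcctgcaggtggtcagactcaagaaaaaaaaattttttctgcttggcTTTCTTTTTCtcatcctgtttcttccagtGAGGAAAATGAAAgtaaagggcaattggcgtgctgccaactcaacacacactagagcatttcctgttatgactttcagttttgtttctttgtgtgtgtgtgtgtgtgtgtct
Gbp5: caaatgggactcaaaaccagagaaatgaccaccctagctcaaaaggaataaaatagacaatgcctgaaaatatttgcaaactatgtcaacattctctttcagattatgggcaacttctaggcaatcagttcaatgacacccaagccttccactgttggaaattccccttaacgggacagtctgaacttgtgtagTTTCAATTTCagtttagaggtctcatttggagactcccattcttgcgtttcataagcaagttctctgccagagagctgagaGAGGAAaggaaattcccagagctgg
Gpr34: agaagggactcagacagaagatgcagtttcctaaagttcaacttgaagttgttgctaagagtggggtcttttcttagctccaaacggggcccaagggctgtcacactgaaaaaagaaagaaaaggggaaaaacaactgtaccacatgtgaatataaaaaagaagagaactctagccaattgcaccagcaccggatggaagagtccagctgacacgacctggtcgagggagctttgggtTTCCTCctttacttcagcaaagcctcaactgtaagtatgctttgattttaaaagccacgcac

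Ifi44l held 2 matches to the interferon stimulated response element, at positions -91 to -82 and -59 to -50 from the start, and the second overlaps the PU.1 and ETS core at -62 to -57. Ifi44l also held the only GAS match among the members, at -247 to -239. Gbp5 held 1 interferon element match, at -56 to -47. Interferon element letters were present in 2 of 6 member windows and in 3.92% of all 33469 rat windows, and GAS letters in 1 of 6 and in 8.87% of all. The PU.1 and ETS core was present in 4 of 6 member windows (Gpr34, Mx1, Ifi44l and Gbp5) and in 27.6% of all. The letters of a glucocorticoid response element (AGNACA, any 3 bases, TGTNCT) were in none of the 6 and in 0.0568% of all windows. These matches describe letters in a short window and are not shown to be bound sites.

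Around the members, few genes of the same pathways were in the table. Of 30 microglial symbols only the 3 members were present, 1 higher and 2 lower. Genes such as P2ry12, Cx3cr1, Csf1r and Aif1 were outside the limits, on probe sets without a single symbol, or not measured. Of 61 interferon-inducible symbols Mx1, Ifi44l and Gbp5 were present, all lower, and of 21 immunoproteasome and antigen presentation symbols Psmb9 alone. Of 25 Toll-like receptor and NF-kappa-B symbols 3 were present. Cd180 and Tlr2, a receptor for bacterial lipopeptides, were lower (Tlr2 6.55 ± 0.14 against 6.83 ± 0.11, difference -0.28 ± 0.09, groups overlapping). Nfkbia, the NF-kappa-B inhibitor, was higher (9.99 ± 0.23 against 9.27 ± 0.08, difference 0.72 ± 0.10). It is also among the 17 glucocorticoid responsive genes scored below, of which 16 were higher and 1 lower.

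Markers of other cells that a habenula dissection can hold gave the following values. Among 24 border macrophage and leukocyte symbols Lyve1, a hyaluronan receptor of lymphatic endothelium and border macrophages, was the only 1 present and was higher (8.50 ± 0.17 against 8.15 ± 0.08, difference 0.35 ± 0.09). Of 20 vascular symbols, the transporters Slco1a4 (-0.32 ± 0.08) and Slco1c1 (-0.29 ± 0.08) were lower and the lipid transporter Mfsd2a (0.29 ± 0.08) was higher. None of 15 astrocyte and oligodendrocyte symbols was among the single-symbol probe sets of the table. The part of these cell types in the members' differences was not tested.

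Covariation within groups was measured on each rat's deviation from its group mean, which removes the difference that chose the table. Non-stress rat 3 was the highest of its group in Tmem119, Cd180, Mx1 and Ifi44l and the lowest in Psmb9. Non-stress rat 4 was the reverse, lowest in those 4 genes and highest in Psmb9. Among stressed rats, rat 8 was highest in Gpr34, Cd180, Ifi44l and Gbp5 and lowest in Mx1.

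Of the 21 member pairs, 0 passed the adjusted threshold of 0.05 (exact permutation of rats within groups, 2-sided, Benjamini-Hochberg), 2 had an unadjusted p under 0.05, and Spearman's rho gave the same counts. Mx1 and Psmb9 moved in opposite directions (Pearson's r -0.875, exact permutation p = 0.00521, adjusted p = 0.109; Spearman's rho -0.905, exact permutation p = 0.0122, adjusted p = 0.146). Both genes are interferon-inducible, and the pair had the lowest r of the 21. With non-stress rats 3 and 4 left out, the farthest from the Mx1 median, r was -0.677 (exact permutation p = 0.104).

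Cd180 and Ifi44l moved together (Pearson's r 0.808, exact permutation p = 0.0174, adjusted p = 0.182; Spearman's rho 0.810, exact permutation p = 0.0139, adjusted p = 0.146). With the same rats left out, also the farthest from the Cd180 median, r was 0.616 (exact permutation p = 0.125). Without those rats neither pair had an unadjusted p under 0.05, but only 48 orders of rats then remained, against 576 before. These p-values therefore cannot tell a weaker relation from fewer rats.

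Within each class r had both signs and no pair passed adjustment, so 8 rats cannot decide whether a class varies as a block. Some signs changed when a pair of rats was left out together. Without non-stress rats 3 and 4, Mx1 with Ifi44l went from 0.258 to -0.611 and Cd180 with Psmb9 from -0.389 to 0.958. Mx1 with Psmb9 and Cd180 with Ifi44l kept their signs, as given above. The 3 microglial pairs had r from -0.41 to 0.50 with a median of 0.33, the 6 interferon pairs from -0.88 to 0.26 with a median of -0.16, and the 12 pairs between the classes from -0.57 to 0.81 with a median of 0.28. Tmem119 and Gpr34, both microglial surface genes, had an r of -0.41 (exact permutation p = 0.292, adjusted p = 0.670), a relation not distinguishable from none over these 8 rats. An absolute r of at least 0.7 was reached by 2 of the 21 member pairs (9.52%) and by 14.9% of all 71631 pairs of probe sets. At 0.8 the shares were 9.52%, from the same 2 pairs, and 7.45%.

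**Figure D3:**
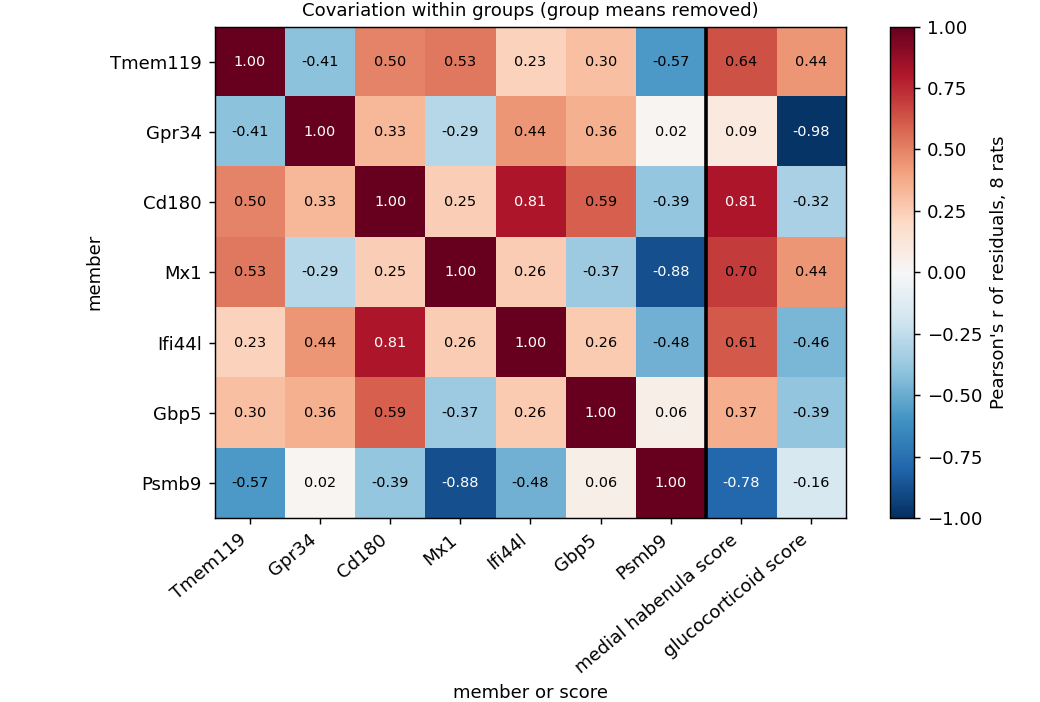
Pearson's r over 8 rats of deviations from the group means, for every pair of members and, right of the black line, for each member with the medial habenula and glucocorticoid scores (colour from -1 in blue to 1 in red). The strongest values are -0.98 for Gpr34 with the glucocorticoid score and -0.88 for Mx1 with Psmb9, and no block of like colour separates microglial from interferon members.

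Each member was also set against a pair of scores that vary from rat to rat, the mean centred level of the 11 medial habenula markers and of 17 glucocorticoid responsive genes in the table. Of these 14 relations 0 passed after adjustment (exact permutation within groups), and 1 had an unadjusted p under 0.05, also by Spearman's rho. That was Gpr34 with the glucocorticoid score (Pearson's r -0.978, exact permutation p = 0.00694, adjusted p = 0.0972; Spearman's rho -0.952, exact permutation p = 0.0104, adjusted p = 0.146). Stressed rat 8 had the lowest glucocorticoid score of its group (0.111, against 0.395, 0.406 and 0.501 in rats 7, 10 and 12) and the highest Gpr34, and stressed rat 12 had the highest score and the lowest Gpr34. Leaving both rats out gave a Pearson's r of -0.857 (exact permutation p = 0.167, again over 48 orders). Spearman's rho was then -0.486 (exact permutation p = 0.458), over the narrower range that the other 6 rats span. Leaving out rat 8 alone gave an r of -0.926 and rat 12 alone -0.976. Centring each array on its median took r to -0.776 (exact permutation, adjusted p = 0.480) and quantile normalization to -0.722 (exact permutation, adjusted p = 0.331).

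Gene by gene, all 17 glucocorticoid responsive genes had a negative r with Gpr34, from -0.96 to -0.02. The lowest were for the mTOR inhibitor gene Ddit4 (-0.96), the EGF receptor inhibitor gene Errfi1 (-0.95) and the pyruvate dehydrogenase kinase gene Pdk4 (-0.93). These 17 genes share the same 8 arrays and move with each other, so they are not separate observations. The other members had both signs against this list. Cd180, the other lower microglial member, had an r of -0.320 with the score (exact permutation p = 0.292, adjusted p = 0.408).

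With the medial habenula score 6 of 7 members had a positive r and Psmb9 a negative one, from -0.78 to 0.81. Once non-stress rats 3 and 4 were left out, Psmb9 went from -0.785 to 0.742 and Mx1 from 0.696 to -0.220, so these signs depend on those rats. Cd180 had the highest (Pearson's r 0.809, exact permutation p = 0.127, adjusted p = 0.378; rho 0.810). The score was 0.269, 0.486, 0.0252 and 0.114 in non-stress rats 1, 3, 4 and 5, so that rats 3 and 4, the extremes for 5 members, were also its extremes, while stressed rats lay between -0.248 and -0.204. The part of the neuronal markers in the members' values was not tested.

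**Figure D4:**
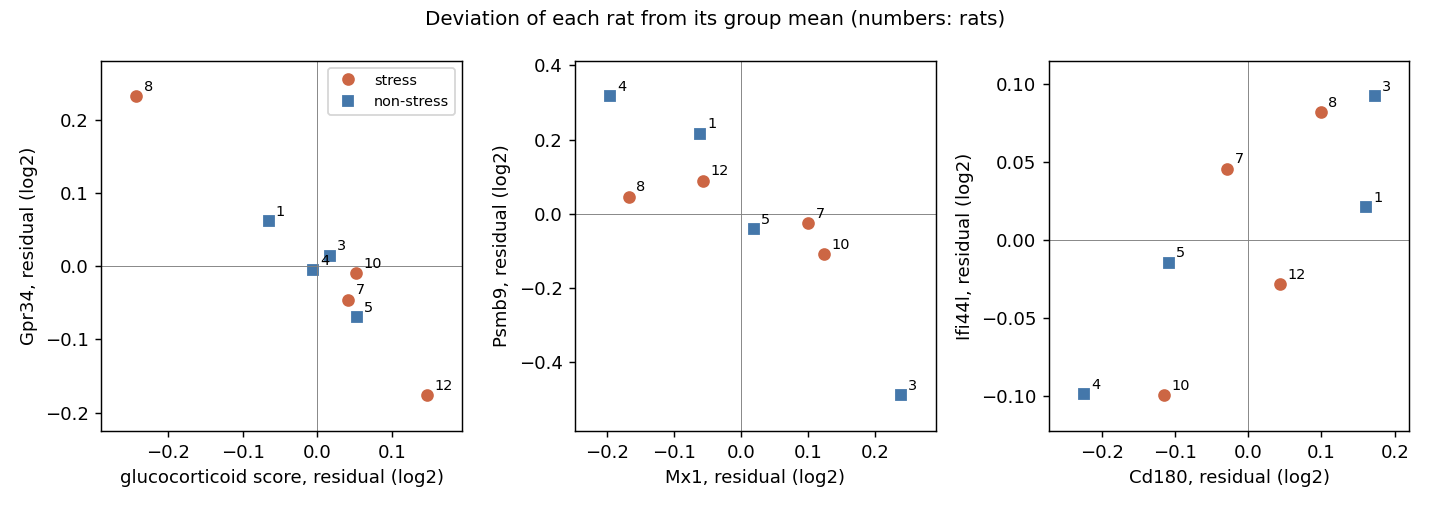
Deviations of each rat from its group mean (log2) for Gpr34 against the glucocorticoid score, Psmb9 against Mx1 and Ifi44l against Cd180, with circles for stressed and squares for non-stress rats and rat numbers beside them. Stressed rats 8 and 12 lie at the ends of the Gpr34 plot, and non-stress rats 3 and 4 at the ends of the Mx1 and Cd180 plots.

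Among the other 282 single-symbol probe sets, the 3 most like each member were taken by the r of these deviations. This likeness is a description over 8 rats sharing the same arrays. Tmem119 was most like the clock gene Per3 (0.927), then C2h4orf46 (0.874) and Lrrc55 (0.849). Gpr34 was most like the olfactory receptor gene Or1j1 (0.921), the decarboxylase gene Ddc (0.874) and the vascular transporter gene Slco1a4 (0.871).

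Cd180 was most like Spata6 (0.975), the substance P precursor gene Tac1 (0.942) and Pxylp1 (0.940). Mx1 was most like Mfsd2a (0.941), the serotonin receptor gene Htr4 (0.932) and Amigo2 (0.885). Ifi44l was most like the kinase gene Plk2 (0.914), Nipal4 (0.879) and Spata6 (0.869). Spata6 was thus among the nearest genes of both Cd180 and Ifi44l.

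Gbp5 was most like Slc22a21 (0.937), Creb3l1 (0.838) and Cxxc4 (0.818), and Psmb9 was most like the deubiquitinase gene Usp2 (0.909), Smc1b (0.882) and Cth (0.868). No member appeared among the 3 nearest genes of another member.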

How the data were processed

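Total RNA from 8 rat habenulae was hybridised to whole-transcript arrays. The authors deposited log2 intensities, already summarized by probe set; how these were background-corrected, normalized and scanned is not given in the sources used here. Each p-value that the authors deposited is unadjusted and was copied from the authors' table. Symbols came from the platform's annotation (283 probe sets with 1 symbol, 5 with several, 91 with none); 6 of 7 members matched a RefSeq promoter window by gene ID. No scanner files were used, so neither dim-spot calls nor other background corrections were tried, and the number of arrays limits the precision.

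The members and gene lists were chosen with earlier results of these data known. Group differences and standard errors came from limma 3.58.1 (R 4.3.3) over all 379 probe sets, with no p-value reported, because the table was selected on this contrast. Each permutation p-value is the share of rat orders whose absolute r, or rho, was at least the observed one. Within-group correlations used residuals from the group means and all 576 orders of rats within groups (smallest possible p 0.00174), adjusted over 21 member pairs and over 14 member and score relations (numpy 2.4.6). Alternatives were median centring, quantile normalization, group medians, Spearman's rho and leaving out each rat. Genes named are the members, list genes found in the table (apart from those of the medial habenula and glucocorticoid lists) and the 3 genes most like each member; Chrna3, Ddit4, Errfi1, Pdk4 and the immune genes of the closing section were named after their values were seen.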

Additional observations from a re-analysis of the deposited data

How the results depend on the processing

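No member's difference changed direction in 77 alternative values, 11 for each member. The deposited table was selected on this difference in these same rats, so a kept direction was nearly given beforehand and nothing is read from it. Of the 77 values, 76 moved by less than 1 within-group SD. The exception was Ifi44l at -0.45 after quantile normalization, against -0.29. That scaling also took the median of the 4 interferon members from -0.31 to -0.39 and the median of all 379 probe sets from -0.28 to -0.17; the cause was not tested. Leaving out each rat in turn gave -0.36 to -0.27 for the interferon median, with -0.36 reached without non-stress rat 4. It gave -0.66 to -0.53 for the microglial median, which was the value of Gpr34 each time. Tmem119 ran from 0.29 to 0.42 over the same settings. Without the dimmest 25% of probe sets, 1 of the 3 interferon-inducible genes stayed in the table, since Mx1 and Ifi44l lay below that level. No correlation passed after adjustment under median centring, quantile normalization or Spearman's rho. Median centring gave r of -0.776 for Gpr34 with the glucocorticoid score (exact permutation, adjusted p = 0.480). For Cd180 with Ifi44l it gave 0.632 (exact permutation, adjusted p = 0.383). Quantile normalization gave -0.722 for Gpr34 with the score (exact permutation, adjusted p = 0.331) and -0.747 for Mx1 with Psmb9 (adjusted p = 0.219). The cause was not tested. With 1 rat left out r alone was recomputed. This r ran from -0.96 to -0.77 for Mx1 with Psmb9, from 0.69 to 0.87 for Cd180 with Ifi44l and from -0.99 to -0.93 for Gpr34 with the glucocorticoid score. No paired analysis was possible because no rat number occurs in both groups. No value of the 18 group values examined lay apart from the other 3 rats by Dixon's criterion.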

Other observations

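Immune genes were also picked by symbol after the table was seen, 16 in all, some of which are in the lists described above. In stressed rats 8 of them were higher and 8 lower. Higher were Mertk, a receptor for engulfing dying cells that is also among the 17 glucocorticoid responsive genes (9.17 ± 0.17 against 8.69 ± 0.07, difference 0.48 ± 0.09), and Ch25h, which makes an oxysterol and is interferon-inducible in mouse macrophages (0.37 ± 0.09). The Src-like adaptor gene Sla was higher by 0.34 ± 0.08. Lower were the kinase gene Tec (-0.35 ± 0.09), the apoptosis inhibitor gene Birc3 (-0.32 ± 0.09), the chemokine gene Cxcl16 (-0.28 ± 0.09) and Tnfsf10, which encodes the death ligand TRAIL (-0.27 ± 0.08). Ch25h thus went against the 4 interferon members, and Tnfsf10, also interferon-inducible, went with them. These differences come from a table selected on the same contrast and were not tested.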
